A study of Caenorhabditis elegans with 2 samples.

Results

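The regions described here are 447 of the 2404 peaks that the authors kept for MEP-1 in embryos of the nematode Caenorhabditis elegans. They were selected by position and by strength: a peak on an autosome, of the usual width of 336 bp, whose summit fell in the promoter windows of exactly 2 protein-coding genes, 1 on each strand. The promoter window of a gene runs from 1000 bp before its annotated 5′ end to 200 bp after it. The 447 peaks came from 1788 autosomal peaks of that width, of which 714 lay at the promoter of a single gene, 575 lay away from promoters and 52 lay in other combinations of promoters. The peaks touched 443 distinct gene pairs and 886 genes, and no gene belonged to more than 1 pair.

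The study used chromatin immunoprecipitation and sequencing (ChIP-seq), which recovers the DNA that a protein sits on. The labels name the target as an eGFP fusion of mep-1 and the antibody as mep-1. Both samples came from whole mixed-stage embryos of strain OP70, mixed in sex, with the genotype unc-119(ed3) III; wgIs70, so both carried the unc-119 mutation on chromosome III and the integrated transgene wgIs70 that supplies eGFP-tagged MEP-1. They were 2 biological replicates of 1 group, with no second condition, and a peak in such material is an average over all cell types of the embryo. The promoter that drives the transgene, its copy number and the state of the endogenous mep-1 gene are not given in the labels.

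The zinc-finger protein MEP-1 acts together with LET-418, a chromatin remodeller of the Mi-2 family, and with HDA-1, a histone deacetylase. Worms that lack it express germline genes in somatic cells, so it counts as a repressor of the germline programme. Opposite-strand gene pairs whose 5′ ends face away from each other share the stretch between them, which serves as promoter sequence for both genes. In the compact worm genome many such stretches are short, and a protein bound there cannot be assigned to either gene from its position.

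The sequences around the summits of the strongest such peaks are shown first, because they show the words and the base composition described further on. Each is the plus strand of ce11 (WBcel235) within 100 bp of the summit, written 5′ to 3′, so the minus-strand gene starts to the left and the plus-strand gene to the right. The first 5 are the strongest peaks, outside the first chromosome, that held the 6-base word ACGCGC or its reverse complement GCGCGT, which is in capitals. The last 2 are the strongest there without it. Of these summits, 6 were intergenic in the annotation and that of hel-1/C26D10.4 was intronic.
rps-13/nfx-1, chrIII:6375097-6375297: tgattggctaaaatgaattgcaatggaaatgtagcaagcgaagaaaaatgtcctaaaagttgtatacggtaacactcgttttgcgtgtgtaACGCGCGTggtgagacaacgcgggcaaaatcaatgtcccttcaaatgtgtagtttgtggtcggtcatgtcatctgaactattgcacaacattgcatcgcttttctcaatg
imp-2/enpl-1, chrIV:11119186-11119386: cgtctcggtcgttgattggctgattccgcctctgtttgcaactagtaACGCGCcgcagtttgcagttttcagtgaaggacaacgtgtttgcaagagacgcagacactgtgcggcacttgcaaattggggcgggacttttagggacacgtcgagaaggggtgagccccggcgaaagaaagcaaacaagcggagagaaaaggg
cct-8/Y55F3AR.2, chrIV:1094271-1094471: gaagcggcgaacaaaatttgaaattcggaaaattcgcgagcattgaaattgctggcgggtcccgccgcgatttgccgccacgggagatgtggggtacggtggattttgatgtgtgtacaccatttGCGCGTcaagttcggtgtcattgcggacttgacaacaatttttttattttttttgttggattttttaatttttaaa
hel-1/C26D10.4, chrII:8329021-8329221: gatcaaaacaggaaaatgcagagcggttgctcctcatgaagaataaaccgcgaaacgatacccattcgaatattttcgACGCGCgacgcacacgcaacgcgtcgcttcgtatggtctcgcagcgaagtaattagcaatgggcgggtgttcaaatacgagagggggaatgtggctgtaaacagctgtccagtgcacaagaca
F31D4.2/fkb-6, chrV:20845599-20845799: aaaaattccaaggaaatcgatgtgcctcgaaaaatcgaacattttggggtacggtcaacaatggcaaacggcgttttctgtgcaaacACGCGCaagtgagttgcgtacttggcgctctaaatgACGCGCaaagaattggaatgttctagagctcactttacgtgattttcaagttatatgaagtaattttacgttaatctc
col-38/rpl-5, chrII:8569421-8569621: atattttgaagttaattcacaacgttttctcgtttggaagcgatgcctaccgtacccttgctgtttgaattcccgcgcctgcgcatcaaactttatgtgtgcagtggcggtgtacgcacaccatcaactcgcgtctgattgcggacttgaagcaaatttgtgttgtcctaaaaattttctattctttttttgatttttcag
tim-1/Y75B8A.23, chrIII:12250347-12250547: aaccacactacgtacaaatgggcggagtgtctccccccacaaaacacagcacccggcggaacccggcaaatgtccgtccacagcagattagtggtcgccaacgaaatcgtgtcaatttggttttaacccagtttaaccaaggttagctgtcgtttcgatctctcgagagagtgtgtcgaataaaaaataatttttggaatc

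The word divergent in the name of these pairs was checked against the annotation. In 445 of 447 cases (99.6%, 95% exact Clopper-Pearson interval 98.4 to 99.9) the minus-strand gene began to the left of the plus-strand gene, so that the genes pointed away from each other. The exceptions, named after their values were seen, were rec-1/pif-1 and rpb-7/Y54E10BR.2, whose 5′ ends overlapped by 15 and 3 bp. Intervals on shares of peaks or pairs cover counting error only, and neither peaks nor genes are replicates of the experiment.

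Summits lay in the stretch between the 5′ ends in 405 of 447 peaks (90.6%, interval 87.5 to 93.1). For comparison, 68.7% of all autosomal sequence in which a summit would have met the rule lay between the 5′ ends of its pair. The other 42 summits were at or past a 5′ end, 21 on each side, at a median depth of 26 bp and at most 184 bp into the gene. Their pairs were closer together, with a median of 276.5 bp between 5′ ends (interval 197 to 442). By annotation 402 summits were intergenic (89.9%), 35 lay in a 5′ UTR, 4 in coding sequence, 3 in an intron, 2 in a 3′ UTR and 1 in another exon. Among single-gene peaks, 84.0% of summits were intergenic and 7.98% intronic, and the difference was not tested.

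Summits were divided evenly between the strands. The summit was nearer to the plus-strand gene in 224 peaks and nearer to the minus-strand gene in 223. The nearer 5′ end was a median of 138 bp from the summit (interval 126 to 147) and the farther one 355 bp (314 to 389). Both 5′ ends lay within 500 bp of the summit in 314 peaks (70.2%) and within 200 bp in 96 (21.5%). At single-gene peaks the 5′ end was a median of 229 bp from the summit. Summits stood off the midpoint of their pair by a median of 91 bp (78.5 to 103), and 264 of the 405 summits between 5′ ends (65.2%) fell in the middle 50% of the stretch.

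**Figure D1:**
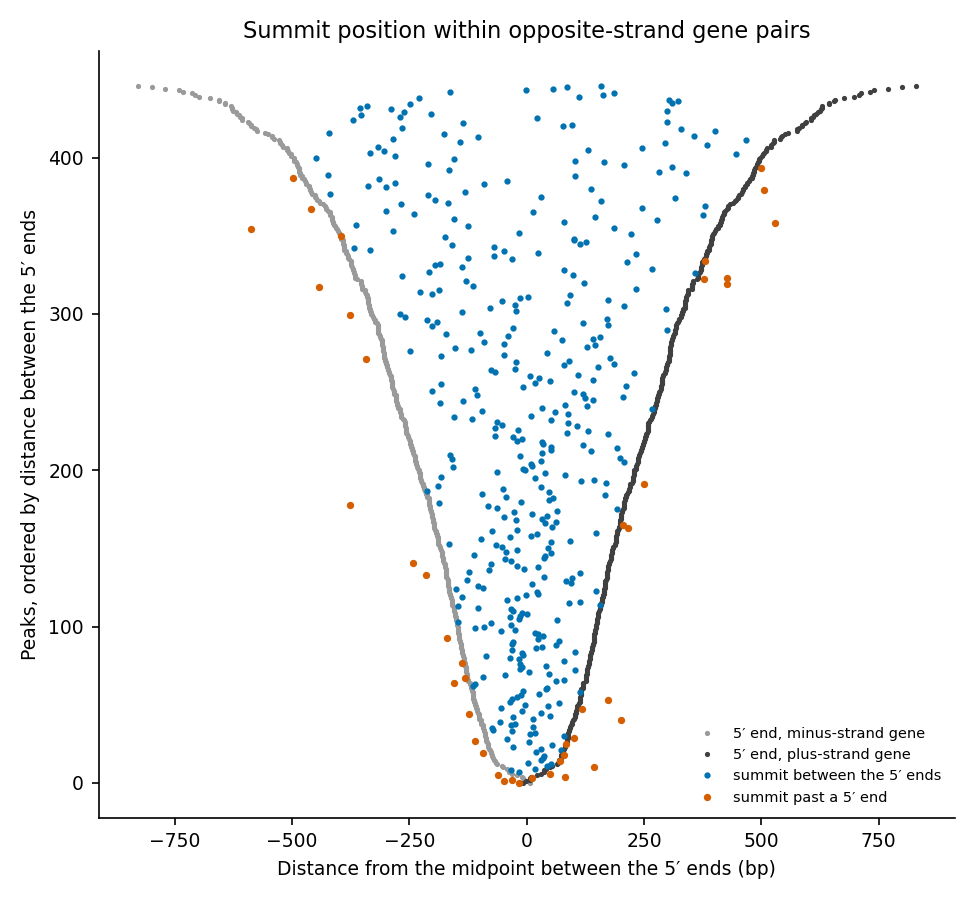
Each row is 1 of the 447 peaks, ordered by the distance between the 5′ ends of its pair, with the horizontal axis in bp from the midpoint of the pair. Grey and black points are the 5′ ends of the minus-strand and plus-strand genes. Blue points are the 405 summits between them, and orange points are the 42 summits at or past a 5′ end. A summit between close 5′ ends must lie near the midpoint. In the longest pairs the rule bars summits more than 1000 bp from either 5′ end, so the spread by length is not read.

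The distance between the 5′ ends had a median of 510 bp (interval 466 to 556), with the middle 50% of pairs from 311.5 to 753 bp. The shortest stretch with a summit inside it was 74 bp, at trm-1/ints-2, a tRNA methyltransferase gene and an Integrator subunit gene. The longest was 1659 bp, at mif-4/ipla-6, which encode a protein of the macrophage migration inhibitory factor family and a phospholipase. The annotation holds 2782 autosomal opposite-strand pairs in which a summit could have met the rule, called eligible pairs below, with a median of 764.5 bp between 5′ ends. Of these, 443 held such a peak, which is 15.9% of eligible pairs and the background for the shares that follow. The 2252 eligible pairs without any peak of the authors' set had a median of 886 bp.

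The share of eligible pairs with a peak depended on how far apart the genes began. It was 2 of 46 (4.35%) where 5′ ends coincided or overlapped, 16.7% at 1 to 200 bp, and 29.1% (interval 24.9 to 33.5) at 201 to 400 bp. It was 25.5% at 401 to 600 bp, 24.3% at 601 to 800 bp and 17.2% at 801 to 1000 bp. Beyond that it was 8.10% up to 1400 bp and 1.19% up to 2000 bp, where the rule leaves little shared sequence, a median of 264 bp a pair in the last class. Counted per length of shared sequence, there were 329.9 peaks per Mb at 1 to 200 bp, 443.1 at 201 to 400 bp and 311.5 at 401 to 600 bp. Values were 236.1 at 601 to 800 bp, 167.7 at 801 to 1000 bp, 115.3 at 1001 to 1400 bp and 43.0 at 1401 to 2000 bp. By this count pairs 1 to 200 bp apart were not below those from 401 to 1000 bp. Intervals of the shares in the classes from 201 to 800 bp overlap one another, so no order among them is read. The values per Mb were given no intervals.

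**Figure D2:**
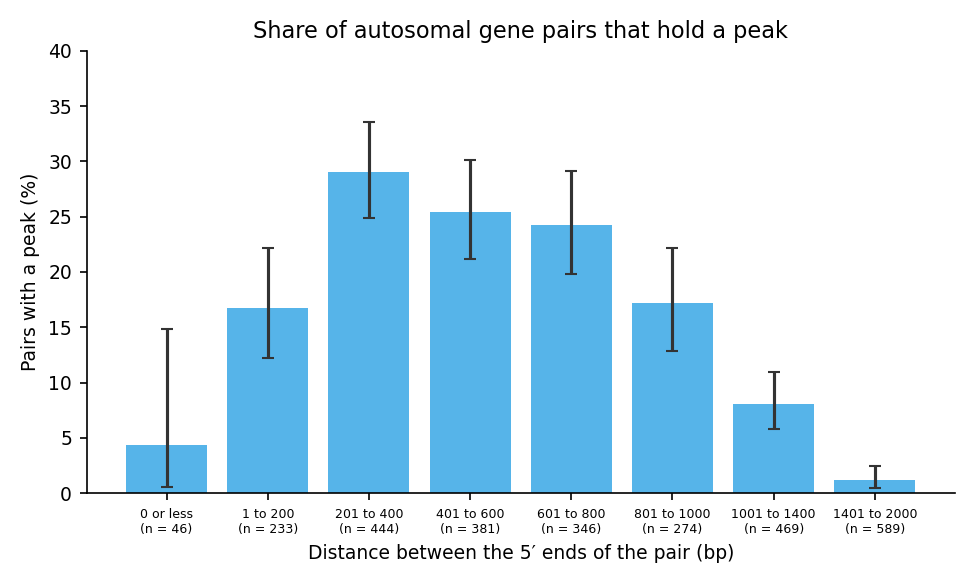
Bars give the share of eligible autosomal opposite-strand pairs (%) that hold a peak, by the distance between the 5′ ends in bp, with 95% exact Clopper-Pearson intervals and the number of pairs under each bar. The highest bar is 29.1% at 201 to 400 bp and the lowest 1.19% at 1401 to 2000 bp. The bars take no account of the length of shared sequence, which differs between the classes.

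Peaks were denser in sequence shared by 2 promoters than in sequence of a single promoter. The 1882069 bp of shared autosomal sequence held 237.5 peaks per Mb (exact Poisson interval 216.0 to 260.6), against 44.1 per Mb (40.9 to 47.5) in 16190250 bp that belonged to the promoter of only 1 gene. At matched distance from the nearest 5′ end the values were 259.1 against 43.3 per Mb under 100 bp, 292.8 against 75.1 at 100 to 199 bp, 376.2 against 95.5 at 200 to 299 bp, and 195.9 against 70.9 at 300 to 399 bp. Distance was counted without regard to side, so the classes under 200 bp include sequence past the 5′ end and are not matched for side. At no distance were the classes matched for whether the sequence lay inside a gene. Summits were intronic in 7.98% of single-gene peaks and 0.67% of the 447. A shared base counts for 2 promoters and is entered once here. How active these genes are in embryos was not measured, and its part in the difference was not tested.

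Shares differed between chromosomes. Peaks occupied 110 of 512 eligible pairs on chromosome I (21.5%, interval 18.0 to 25.3) and 98 of 463 on III (21.2%, 17.5 to 25.2). They occupied 80 of 542 on II (14.8%), 75 of 516 on IV (14.5%) and 80 of 749 on V (10.7%, 8.56 to 13.1). The intervals of I and III do not overlap that of V. In 4 pairs 2 separate peaks met the rule: supr-1/dnj-28, larp-5/sld-2, cids-2/phip-1 and cdc-14/ttc-4. At cdc-14, which encodes a cell cycle phosphatase, the summits were 395 bp from the 5′ end of cdc-14 and 333 bp from that of ttc-4, with pooled signal values of 92.4 and 65.5.

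Peak strength is given by the authors' signal value, which the peak caller assigned and which is compared here only within a list. The peaks were selected on the pooled value, since the authors' set equals the 2404 strongest regions of the pooled list, so pooled values are a description. They ran from 34.3 to 115.2 with a median of 54.9 and ranks from 142 to 2395 in the set. The strongest peaks of the set were narrower, and 88 narrower autosomal peaks met the same rule on position, with a median of 124.9 and values from 71.6 to 322.5. Just inside the limit of the set were F44G4.3/tdp-1 at 34.39, trm-1/ints-2 at 34.37 and lir-3/sfxn-1.2 at 34.32. Just outside it were catp-6/mtr-4 at 34.14, acl-3/ndub-6 at 34.05 and F26F4.9/cee-1 at 34.04, followed by the rest of 601 pooled regions that met the position rule, with a median of 13.2. At the edge of the window, T10E9.8/T10E9.2 lay inside with a farther 5′ end 994 bp away and idha-1/lmd-1 lay outside at 1003 bp. A candidate region of the pooled list was also present in 472 of the 2252 eligible pairs without a peak (21%).

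Of the lists made by the authors for each replicate, that of replicate 2 held more of the peaks. A region with its summit within 100 bp was present for 396 of 447 peaks (88.6%, interval 85.3 to 91.4) among the 25216 regions of replicate 1 and for 440 (98.4%, 96.8 to 99.4) among the 30000 of replicate 2. Both replicates held 389 of the peaks, replicate 2 alone held 51, replicate 1 alone 7, and no peak was missing from both. Matched signal values in replicate 1 had a median of 11.0 and a range of 2.04 to 38.7. In replicate 2 they had a median of 43.7 and a range of 12.8 to 100.3. Levels of the 2 lists were not compared, because depth is unknown.

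Ranks within each list show how much each replicate carried a peak. Among the 2404 strongest regions of its list, replicate 1 placed 271 of the peaks (60.6%) and replicate 2 placed 404 (90.4%). Both did so for 238 peaks, replicate 2 alone for 166, replicate 1 alone for 33 and neither for 10. Over the 389 peaks matched in both, Spearman's rho across peaks was 0.24 between the replicates, 0.51 between pooled and replicate 1, and 0.94 between pooled and replicate 2. The pooled list contains the reads of both replicates, and peaks of one library share its depth and preparation. Single-gene peaks were found in replicate 1 in 85.6% and in replicate 2 in 98.0% of cases, and peaks away from promoters in 80.5% and 98.3%.

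**Figure D3:**
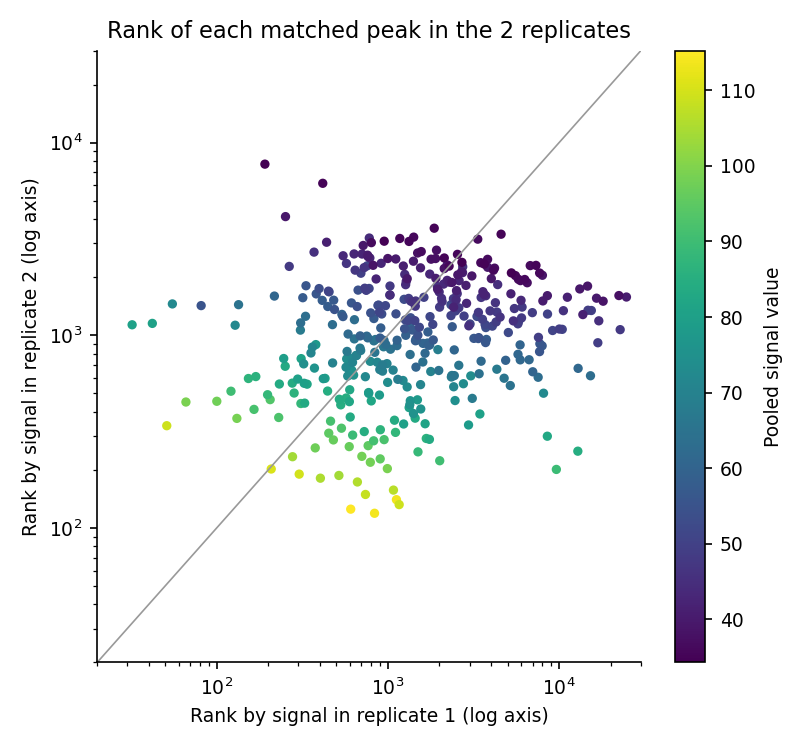
Each point is 1 of the 389 peaks matched in both replicates, with its rank by signal value in replicate 1 on the horizontal and in replicate 2 on the vertical axis, both logarithmic, coloured by pooled signal value; the line marks equal rank. Ranks run from 32 to 24754 in replicate 1 and from 119 to 7733 in replicate 2, and pooled signal follows the vertical axis more closely than the horizontal one.

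The strongest peak lay between lin-53 and nra-2 on chromosome I, with its summit at 9620005, 245 bp from the 5′ end of lin-53 and 222 bp from that of nra-2. Its signal value was 16.5 in replicate 1 (rank 606), 99.2 in replicate 2 (rank 125) and 115.2 in the pooled list. lin-53 encodes a histone-binding protein that is a subunit of the NuRD and DREAM complexes, the former being the complex built around Mi-2 proteins such as LET-418. ndk-1/F25H2.6, where ndk-1 encodes a nucleoside diphosphate kinase, followed with 14.3 in replicate 1, 100.3 in replicate 2 and 113.9 pooled. pqn-21/cye-1 had 12.1, 96.2 and 113.5 in the same order, and cye-1 encodes cyclin E, which drives entry into DNA replication. All 3 ranked between 119 and 140 in replicate 2 and between 606 and 1121 in replicate 1.

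Ribosomal protein genes came next. rps-13/nfx-1, whose sequence above holds overlapping ACGCGC and GCGCGT, had 24.7 in replicate 1 (rank 208), 85.7 in replicate 2 (rank 202) and 110.7 pooled, with its summit 9 bp from the midpoint of the pair. col-38/rpl-5, a cuticle collagen gene beside a large-subunit ribosomal protein gene, had 21.8, 87.5 and 109.6. Its summit was 13.5 bp from the midpoint of an 839 bp stretch, so position does not tell the genes apart. tim-1/Y75B8A.23, where tim-1 is the worm TIMELESS gene, had no matched region in replicate 1, 98.2 in replicate 2 and 109.3 pooled. The annotated spliced leader RNA gene sls-2.8, of the snRNA class, lies under that peak.

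The remaining peaks among the 12 strongest belonged to metabolic, secretory and transcription genes. mlcd-1/idhg-1, which encode malonyl-CoA decarboxylase and an isocitrate dehydrogenase subunit, had 35.1 in replicate 1 (rank 51), 72 in replicate 2 (rank 339) and 109.1 pooled. It was the only one of the 12 with a much better rank in replicate 1. imp-2/enpl-1, a signal peptide peptidase gene and the gene of an endoplasmic reticulum chaperone, had 11.9, 97.6 and 109.1, with the summit 12 bp from the 5′ end of enpl-1. icd-1/vps-32.1 reached 108.2 pooled, mrpl-37/lin-38 106.5, mdh-2/F20H11.4 105.9 and pas-4/rpb-3 105.3. These genes include a subunit of the mitochondrial ribosome, malate dehydrogenase, a proteasome subunit and a subunit of RNA polymerase II. In replicate 1 their values lay between 12.4 and 19.2, and in replicate 2 between 88.9 and 94.4.

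The peaks ranked most differently by the replicates are given because they show the limits of the pooled order. hsp-16.2/hsp-16.41 ranked 191 in replicate 1 with a signal value of 25.5 and 7733 in replicate 2 with 12.8, and its pooled value of 34.5 was near the limit of the set. C08F8.9/cpt-2 ranked 416 and 6150, and F29B9.11/jmjd-1.2, the latter a histone demethylase gene, ranked 252 and 4130. In the other direction pvf-1/Y39A3CL.7 ranked 24754 in replicate 1 and 1579 in replicate 2, K08D10.13/rnp-2 22749 and 1069, and uvs-1/xpo-1 22367 and 1607. rnp-2 encodes the U1 snRNP protein A and xpo-1 the main exporter of proteins from the nucleus. Their values in replicate 1, from 2.04 to 2.25, were close to the lowest among matched peaks, which was 2.04.

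The pair hsp-16.2/hsp-16.41 is a textbook divergent promoter, from which both small heat shock genes are induced by heat. Its complete stretch between the annotated 5′ ends is shown on the plus strand of ce11, with hsp-16.2 to the left, and the summit was 42 bp from the 5′ end of hsp-16.41. Capitals mark GAANNTTC and TTCNNGAA, the 2 arrangements of the heat shock element core. These words were searched after this peak had been singled out, each reads the same on both strands, N is any base, and they overlap at the left site. GAANNTTC was present in 12.8% of the 447 windows of 201 bp and in 14.2% of such windows in eligible pairs without a peak, and TTCNNGAA in 11.9% and 12.1%. The hsp-16 genes have close copies elsewhere on chromosome V, and no source used here says how reads that match several places were treated, so this peak is uncertain.
hsp-16.2/hsp-16.41, chrV:1804957-1805178: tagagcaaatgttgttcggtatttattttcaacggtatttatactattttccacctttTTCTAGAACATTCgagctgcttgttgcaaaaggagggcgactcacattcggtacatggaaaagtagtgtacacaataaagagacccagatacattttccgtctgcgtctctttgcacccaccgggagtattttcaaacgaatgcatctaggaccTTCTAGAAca

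Other pairs whose genes have like functions also held peaks. Of 148 eligible pairs with both genes in the same of 25 gene lists, 8 held one (5.41%), against 15.9% of all eligible pairs. They were rps-10/rpl-24.1, both cytosolic ribosomal proteins (17.5 in replicate 1, 87.7 in replicate 2, 104.2 pooled), and the splicing factor pairs rsp-2/rsp-1 (8.93, 82.8, 90.5) and snr-3/rsp-5 (18.6, 61.9, 84.4). orc-5/cyb-1, an origin recognition complex subunit and cyclin B, had 15.6, 51.5 and 67.9. The histone pairs his-60/his-59, his-4/his-3 and his-61/his-62 had pooled values of 67.8, 56.4 and 55, and hsp-16.2/hsp-16.41 was the last. Histone genes are near-identical copies, so their peaks are uncertain for the same reason as that of hsp-16.2/hsp-16.41.

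Gene groups were then compared with the background among genes of eligible pairs, of which 886 of 5206, or 17.0%, had such a peak. The share was above 17.0% in 18 of 25 lists and below it in 7. A list gene was present on at least 1 side in 216 of 447 peaks and on both sides in 44, and 231 peaks had none. Since 1 peak counts for both of its genes, a list can hold a peak through the neighbour of its member. No test was made on these shares.

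Of the lists for making proteins, cytosolic ribosomal proteins, translation factors and ribosome assembly had intervals wholly above 17.0%. Of 50 cytosolic ribosomal protein genes in eligible pairs, 21 had a peak (42%, interval 28.2 to 56.8), at pooled values from 36.6 at rpl-41.1 to 110.7 at rps-13, with a median of 74.2 against 54.9 over all 447 peaks. A further 19, among them rps-0, rps-1, rpl-2 and rpl-4, lay at the narrower peaks outside the width rule. Among the 2404 strongest regions of replicate 1 alone the share was 72%, and among those of replicate 2 alone it was 46%. In these settings 15.2% and 15.3% of all eligible pairs held a peak. With promoter windows from 2000 bp upstream the share was 19.6% (interval 9.82 to 33.1), where 9.78% of all eligible pairs held one. Translation factors stood at 13 of 25 (52%), including eif-1.A (78.2), the eIF4G gene ifg-1 (69.7) and the release factor gene erfa-3 (65.3). The nucleolar and ribosome assembly list stood at 16 of 28 (57.1%), including nol-10 (91.2), nog-1 (62.9) and nucl-1 (51.0). This list also took in rbm-12, rbm-5, rbm-25 and rbm-26, named for their RNA-binding motifs, the histone chaperone gene nap-1 and nop-1, which acts on the cell cortex. Mitochondrial ribosomal proteins stood at 9 of 29 (31.0%, interval 15.3 to 50.8) and aminoacyl-tRNA synthetases at 3 of 15 (20%, 4.33 to 48.1), and both intervals include 17.0%.

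Protein degradation and folding followed. The proteasome list had the highest share of the 25, 14 of 24 (58.3%, interval 36.6 to 77.9), drawn from both the core particle, such as pas-4 (105.3) and pbs-7 (86.1), and the regulatory particle, such as rpn-12 (98.1), rpt-2 (84.7) and rpn-7 (83.2). Its interval overlaps those of the next lists. Ubiquitin and related genes stood at 12 of 37 (32.4%), led by let-70 (83.3), which encodes a ubiquitin-conjugating enzyme. Chaperones stood at 11 of 33 (33.3%), among them the chaperonin subunit genes cct-8 (98.6), cct-6 (95.4), cct-5 (88.1), cct-4 (42.5) and cct-2 (40.3). The chaperonin genes cct-1 and cct-7 lay at narrower peaks. With any width 57.6% of chaperone genes had a peak, where 19.1% of all eligible pairs held one. The share was also 57.6% with replicate 1 alone, but 21.2% (interval 8.98 to 38.9) with replicate 2 alone. In these settings 15.2% and 15.3% of all eligible pairs held a peak. The usual width differed as well, 380 bp in replicate 1 and 330 bp in replicate 2. The parts of replicate and width in this difference were not tested.

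Lists of RNA processing, transcription and nuclear transport genes also had shares above 17.0%. Splicing factors stood at 19 of 38 (interval 33.4% to 66.6%), including the SR protein genes rsp-1, rsp-2, rsp-5 and rsp-7 and the Sm protein genes snr-1, snr-2, snr-3 and snr-6, with pooled values of 61.7 to 91.1 for these 8. RNA polymerase, TAF and Mediator genes stood at 7 of 21 (33.3%, 14.6 to 57.0), with rpb-3 (105.3), mdt-19 (91.6) and taf-4 (81.8), and this interval includes 17.0%. Nuclear pore and transport genes stood at 10 of 27 (37%). They included the nucleoporin genes npp-12 (83.5) and npp-3 (76.1) and the importin gene ima-1 (73.3).

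Replication and cell cycle genes stood at 21 of 56 (37.5%, interval 24.9 to 51.5). They covered the G1 cyclin gene cye-1 (113.5), the origin factors orc-1 (56.9), orc-5 (67.9) and cdc-6 (54.6), the replicative helicase subunit mcm-7 (47.6), the mitotic kinases cdk-1 (60.8) and air-1 (36.3), and the centriole genes sas-5 (66.9) and sas-6 (72). In replicate 1 the peak of iff-1/cdk-1 had a signal value of 8.05 and in replicate 2 one of 51.2. DNA repair and meiosis genes stood at 4 of 32 (12.5%, interval 3.51 to 29.0), an interval that includes 17.0%.

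Chromatin factors and germline RNA regulators are the groups closest to what MEP-1 is known for, and at the usual width the intervals of both lists included 17.0%. The list of synMuv, DREAM, NuRD and other chromatin factors stood at 11 of 39 (28.2%, interval 15 to 44.9). It held lin-53, lin-38, the Polycomb-like gene mes-6 (70.7), the SWI/SNF gene swsn-6 (47.1) and hda-1, which encodes the deacetylase that works with MEP-1. As a pattern of symbols it left out other chromatin genes, among them snfc-5, nurf-1 and dot-1.1, which had peaks. Left-out chromatin genes without a peak were not counted, so the share holds for the listed genes only. The hda-1 peak, shared with ril-1, had 7.17 in replicate 1, 31.6 in replicate 2 and 39.3 pooled, and its summit lay 970 bp from the 5′ end of hda-1 and 290 bp from that of ril-1. A further 7 chromatin genes, among them lin-35, lin-54, efl-1 and mrg-1, lay at narrower peaks. With any width the share of the chromatin list was 46.2% (interval 30.1 to 62.8), where 19.1% of all eligible pairs held a peak. It was 43.6% (27.8 to 60.4) with replicate 1 alone and 20.5% (9.30 to 36.5) with replicate 2 alone. In these settings 15.2% and 15.3% of all eligible pairs held a peak. Small RNA and P granule factors stood at 14 of 56 (25%, 14.4 to 38.4), including rde-4 (93.2), patr-1 (75), spn-4 (66.3), nos-3 (63.4) and gld-3 (60.1).

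Lists of mitochondrial and membrane traffic genes had shares above the background too. Respiratory chain and ATP synthase genes stood at 10 of 27 (37%), including isp-1 (75.8) and mev-1 (59.5), which encode subunits of complex III and complex II. The list of mitochondrial import and metabolism stood at 9 of 27 (33.3%, interval 16.5 to 54), an interval that includes 17.0%. It held idhg-1, mdh-2 and aco-2 of the citric acid cycle, but also counted the dynactin genes dnc-1 and dnc-2, which are not mitochondrial. Vacuolar ATPase and trafficking genes stood at 24 of 69 (34.8%, 23.7 to 47.2), including rab-1 (86), rab-5 (69.0) and rab-11.1 (71.2), GTPases that mark stages of membrane traffic. With replicate 1 alone the trafficking share was 23.2%, where 15.2% of all eligible pairs held a peak.

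The 7 lists below 17.0% were those of DNA repair and meiosis, chemoreceptors, C-type lectins and F-box proteins, cuticle collagens, nuclear hormone receptors, histones and neuropeptides. Of the chemoreceptor genes, 7 of 294 had a peak (2.38%, interval 0.963 to 4.84) and 7 of 184 genes of C-type lectins and F-box proteins (3.8%, 1.54 to 7.68). At sri-5, the chemoreceptor gene with the strongest peak (96.3), the partner is the splicing gene rsr-1. Cuticle collagens stood at 2 of 39 (5.13%, 0.627 to 17.3), with rpl-5 as the neighbour of col-38. Nuclear hormone receptors stood at 3 of 45 (6.67%, 1.40 to 18.3) and histones at 6 of 63 (9.52%, 3.58 to 19.6). The intervals of collagens, nuclear hormone receptors and histones all include 17.0%. With replicate 2 alone 4.44% of nuclear hormone receptor genes had a peak, where 15.3% of all eligible pairs held one. None of 14 neuropeptide genes in eligible pairs had one, with an upper interval limit of 23.2%. Homeobox genes stood at 3 of 11 (27.3%, 6.02 to 61), too few to place.

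**Figure D4:**
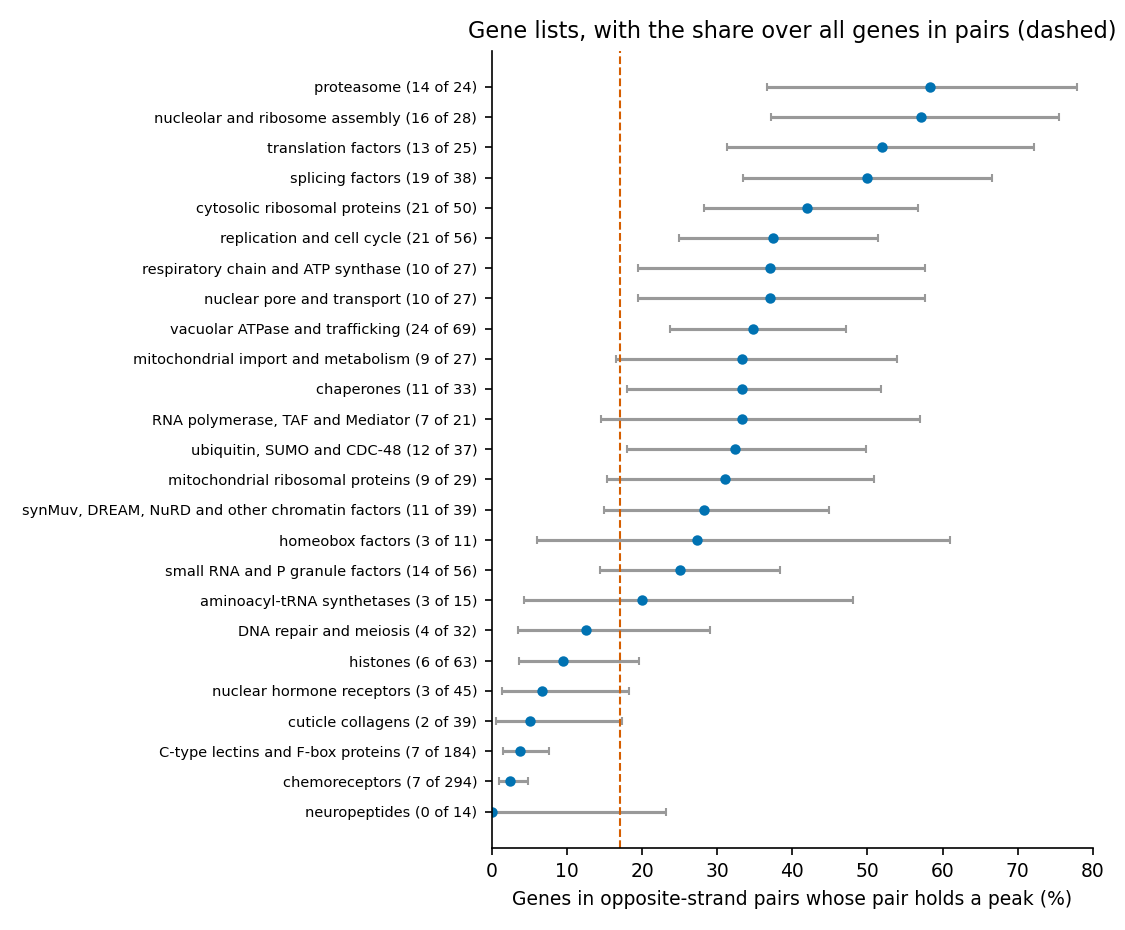
Points give, for each of 25 gene lists, the share of its genes in eligible opposite-strand pairs whose pair holds one of the 447 peaks (%), with 95% exact Clopper-Pearson intervals and counts beside the names; the dashed line is 17.0%, the share over all 5206 genes. The proteasome list is highest at 58.3% and the neuropeptide list is at 0.

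The sequence at the summits was richer in guanine and cytosine than the middle of the shared stretch in pairs without a peak. Within 100 bp of the summit the GC content was 39.6% ± 5.99 (SD over 447 peaks), against 34.7% ± 6.79 in windows of the same length at the middle of the shared stretch of 2252 eligible pairs without a peak. It was 41.7% ± 6.84 at 714 single-gene peaks and 46.5% ± 6.29 at 575 peaks away from promoters. CpG dinucleotides made up 5.66% of steps at the 447 peaks, 3.21% in pairs without a peak, 5.64% at single-gene peaks and 5.22% at peaks away from promoters. The reference points differ, since peaks were aligned at the summit and pairs without a peak were not. Among pairs 300 to 700 bp apart, all aligned at the midpoint between the 5′ ends, GC content within 10 bp was 37.4% with a peak and 33.6% without one. ChIP-seq recovers fragments unevenly by GC content, and its part in these values was not tested.

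Of 2080 possible 6-base words, counted on both strands, ACGCGC and its complement GCGCGT exceeded the pairs without a peak by most. It was present at 114 of 447 peaks (25.5%, interval 21.5 to 29.8) and in 4.09% of those pairs. Single-gene peaks held it at 24.6% (21.5 to 28), with an interval that overlaps that of the pairs, and peaks away from promoters at 12.3%. In windows with a GC content from 34.8% to 43.5%, the middle 50% of the 447 peaks, the shares were 27.1% at the peaks, 4.51% in pairs without a peak and 26.2% at single-gene peaks. Of its 152 occurrences within 300 bp of a summit, 110 (72.4%) lay within 50 bp. Peaks with the word had a median pooled signal of 56.2 and those without it 54.7. The word was picked from these same windows, so its share is a description. For this word and those below, windows at peaks were centred on the summit and windows of pairs without a peak were not.

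Related words behaved alike. Of the 20 words that exceeded the pairs without a peak by most, 16 contained a CG step and 10 contained GCGC. Of all 2080 words, 604 contained a CG step, and words that overlap by a shift can count the same site. The second of the 20, GCGCAC, was present at 23.7% of peaks, 3.86% of pairs without a peak and 16.9% of single-gene peaks. Words richer in adenine and thymine set the peaks off from single-gene peaks, led by AAAATT at 67.6% against 52.4%, but pairs without a peak held it in 67.4%. GAGAGA went the other way: it was present at 25.3% of the 447 peaks, 38.1% of single-gene peaks, 58.8% of peaks away from promoters and 11.0% of pairs without a peak. The TATA box word TATAAA was present at 14.5% of peaks and 25.5% of pairs without a peak, and the GATA factor word GATAAG at 3.36% and 10.3%. The GC box word CCGCCC was present at 13.2% of the 447 peaks, 3.46% of pairs without a peak, 9.66% of single-gene peaks and 11.3% of peaks away from promoters. Each was searched on both strands in 201 bp windows, and a match is not evidence that a factor binds.

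The composition around the summit mirrored the arrangement of the genes. Over the 405 peaks with the summit between the 5′ ends, GC content was 51.6% within 10 bp of the summit and from 28.3% to 30.2% in the steps from 90 to 130 bp on either side. Adenine reached 41.3% of plus-strand bases at 70 to 90 bp on the side of the minus-strand gene, and thymine 41.9% at 70 to 90 bp on the side of the plus-strand gene. Read along the coding strand of the gene on that side, both are thymine. The nearer 5′ end was at most 100 bp from the summit in 160 of the 447 peaks, so these steps can lie past the start of a gene. Both sides had this excess in 239 of 405 peaks (59.0%, interval 54 to 63.8), counted from 20 to 119 bp from the summit. At single-gene peaks the thymine excess on the side of the gene was 12.6 percentage points ± 13.6 (SD, n = 714), close to the 11.0 ± 14 on the plus side of the pairs. On the other side, single-gene peaks had -1.46 ± 14.5 where the pairs had 11.1 ± 13.8.

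Individual peaks vary around this average. At rps-13/nfx-1 the left side of the printed window has 31 adenines and 22 thymines in 81 bp and the right side 18 and 30. At imp-2/enpl-1, where the summit lies 12 bp from the 5′ end of enpl-1, the left side has 14 adenines and 25 thymines and the right side 28 and 8, the opposite arrangement. The reference point matters as well, and a second one was chosen after the values at summits were seen. Among pairs 300 to 700 bp apart, aligned at the midpoint between the 5′ ends in place of the summit, the excess was present on both sides in 36.3% of 204 pairs with a peak (interval 29.7 to 43.3) and in 29.7% of 518 pairs without one (25.8 to 33.9), and these intervals overlap.

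**Figure D5:**
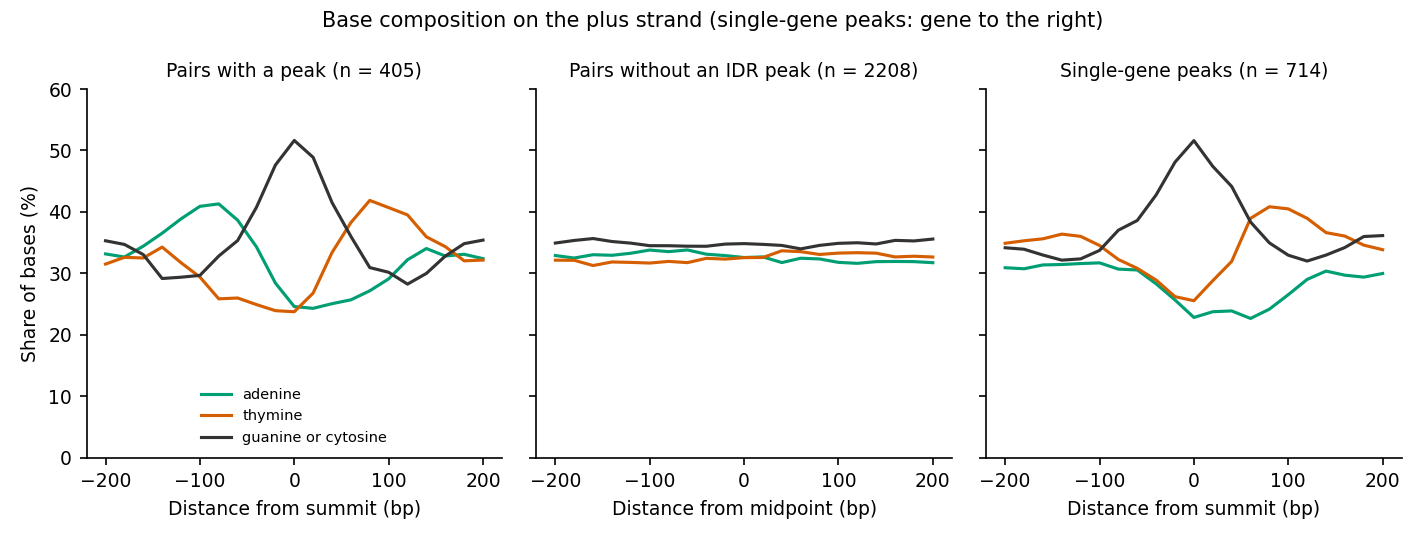
Lines give the share of bases (%) in steps of 20 bp that were adenine, thymine, or guanine or cytosine, on the plus strand. The left panel aligns 405 peaks between 5′ ends at the summit, with the minus-strand gene to the left, and peaks at 51.6% guanine or cytosine with adenine to the left and thymine to the right; the middle panel aligns 2208 pairs without a peak at their midpoint and is nearly flat; the right panel aligns 714 single-gene peaks with the gene to the right, where thymine exceeds adenine.

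Annotated noncoding genes under the peaks were counted last. Any annotated noncoding gene was under 52 of 447 peaks (11.6%, interval 8.81 to 15), against 6.53% (5.54 to 7.63) of windows of the same width in eligible pairs without a peak, 14.8% of single-gene peaks and 32.5% of peaks away from promoters. Of the 52, 47 involved genes of the unspecified ncRNA class, which were under 10.5% of the peaks and 3.02% of the pairs without one. tRNA genes were under 2 peaks (gcy-33/cpr-9 and rocf-1/pqn-71), snoRNA genes under 2 (chst-1/C41C4.9 and let-70/klc-1) and the snRNA class under the peak of tim-1/Y75B8A.23. tRNA genes were under 5.91% of peaks away from promoters.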

How the data were processed

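The authors deposited narrowPeak lists on ce10 and on ce11: 1 list of candidates for each of the 2 replicates, 1 for the pooled reads, and a thresholded set from the irreproducible discovery rate (IDR) procedure, per the file descriptions in the labels. For each region the deposited columns give a signal value, the −log10 of a q-value and a summit. All 447 peaks share the highest −log10 q-value in the deposited files, 3.695, so they were ranked by signal. No source used here names the software for alignment, peak calling or the IDR step, or its thresholds. No control is named for the ce11 list of replicate 2. Depth is unknown.

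Summits were placed against Ensembl release 115 genes on ce11 (WBcel235), and ce10 lists were not used. Replicate regions were matched by summits within 100 bp. Sequences came from the RefSeq copy of the same assembly. Gene lists were patterns of gene symbols. Members, lists and the 6-base words were chosen with earlier results of these data known. Named peaks were the 12 strongest, up to 3 strongest of each list, pairs with both genes in 1 list, the 2 weakest, the shortest and longest pairs, and the 3 most unequal ranks in each direction; other names were chosen after their values were seen. No test was made, because there is 1 group and the rule used the measured values. Steps were tested on simulated data. Python 3.11.15, NumPy 2.4.6, pandas 2.3.3, SciPy 1.17.1 and Matplotlib 3.10.9 were used.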

Additional observations from a re-analysis of the deposited data

How the results depend on the processing

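No paired analysis was possible because the 2 replicates form 1 group. Taking the strongest 1202 peaks of the set left 242 peaks, with 8.66% of eligible pairs occupied, a median signal of 70.9 and 93.8% matched in replicate 1. Peaks of any width gave 19.1% of pairs and a median signal of 60.6. Promoter windows from 500 bp upstream to 100 bp downstream gave a median of 380 bp between 5′ ends and 19.1% of pairs, and windows from 2000 bp upstream gave 687.5 bp and 9.78%; these follow from the windows. Matching summits within 50 bp gave 71.4% in replicate 1 and 96.2% in replicate 2, within 200 bp 94.9% in replicate 1, and by overlap of 50% of both regions 93.7% in replicate 1. ACGCGC was present in 21.3% of windows within 50 bp of the summit. The word leading against single-gene peaks, AAAATT, was present in 67.6% of the usual windows within 100 bp. The 2404 strongest regions of a single replicate, at that list's usual width, gave 430 to 432 peaks, 90.05% to 91.9% of summits between 5′ ends, 15.2% to 15.3% of pairs, 22.7% to 24.9% with ACGCGC and 18 lists above the background. Of the 443 pairs, 285 (64.3%) recurred with replicate 1 alone, 67.2% of the 424 pairs there, and 398 (89.8%) with replicate 2 alone, 93.4% of the 426 there. The number of lists above background ran from 17 to 20 under the other settings, which for the lists were chosen after seeing the data. Shares themselves moved more. With windows from 2000 bp upstream, translation factors stood at 29.6%, the proteasome at 30.4% and ribosome assembly at 31.4%. Ubiquitin and related genes stood at 17.6% and histones at 1.59%, where 9.78% of pairs held a peak. With no second condition, no read numbers and 2 replicates that rank peaks differently, the order of single peaks is known less well than counts over the set.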
